A study of Mus musculus with 3 samples.

Results

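Regions of open chromatin that were called in the kidneys of both old samples and in no peak of the young one were described here. The peaks of the 3 libraries were merged wherever they overlapped by at least 1 bp, and a merged region was kept when it held a peak of old replicate 1, a peak of old replicate 2 and no young peak. This left 6093 of 250005 merged regions, or 2.44%, against 72317 regions called in all 3 libraries. The regions were chosen from the peak calls, so their number, their levels in the whole libraries and their absence from the young peak list are given as a description with no test.

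The study measured mtscATAC-seq in single kidney cells of mice that carry a mutation in trnE, the mitochondrial gene for the glutamate tRNA. In this assay fixed and permeabilised cells keep their mitochondria while a transposase cuts and tags accessible DNA. Both old samples were taken at 75 weeks of age, replicate 1 at 75% mutation load and replicate 2 at 80%. The young sample was taken at 3 weeks and 80% load. Load is the mutant percent of mitochondrial DNA copies. All 3 samples carry the mutation, so a sample without it is not among those compared. The labels do not say whether the old samples are separate animals, and differences between these libraries may be technical. The class tests below had only 1 sum per class and library, so the spread of a single region was hardly measured. Their p-values rest mostly on a spread shared across regions and speak of these libraries only. Age, animal and library cannot be told apart for the young sample, which has no replicate.

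The old replicates held 5656 and 4302 barcodes with 96093221 and 64729297 counts, and the young library held 4440 barcodes with 110871506 counts. From 28 to 39 barcodes were shared by each pair of libraries. Their cell makeup differed: immune-like cells were 88.0% of the 5315 barcodes kept in the first old library, 0.228% of 3950 in the second and 5.23% of 3976 in the young one. Old replicate 1 is labelled kidney, and 216 proximal tubule-like cells and 55 cells of the loop to collecting duct-like class made up its named kidney epithelium. Old replicate 2 had 3351 proximal tubule-like, 326 loop to collecting duct-like and 105 endothelium-like cells, and the young library had 2861, 209 and 50. Old replicate 1 had 186 endothelium-like cells. Class names carry "-like" because they rest on markers of each cluster. The endothelium-like class and the loop to collecting duct-like class were 1 cluster each in all libraries, and the latter was raised for 5 markers of the thick ascending limb. The marker score of the latter was 1.94 for that segment and 1.72 for parietal epithelium, or 1.97 and 1.96 at Leiden resolution 2.0. The endothelium-like cluster scored 3.40, against 1.47 for podocyte, the next set. The loop to collecting duct-like name is thus less firm. Unnamed cells were 181, 159 and 648 in old replicate 1, old replicate 2 and young. In the same order, 38, 153 and 460 of them were in a cluster that scored highest for proximal tubule markers. A cluster that scored highest for B or plasma cell markers held 143, 0 and 127. It is not counted as immune-like here, though it was named so at Leiden resolution 2.0.

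Most of the genome is wrapped in nucleosomes, and short stretches stay accessible where transcription factors bind promoters and enhancers. Promoters of widely used genes are open in nearly every cell type and often rich in CpG, whereas distal enhancers tend to be open in few cell types. In the kidney the proximal tubule reabsorbs most filtered solutes, the loop of Henle to collecting duct segments adjust salt and water, and endothelium lines the glomerular and peritubular capillaries.

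Sequence could be read here only at gene starts, from RefSeq promoter windows (GRCm38.p6, the assembly of mm10), which run from 250 bases before to 50 after a start. Most of the regions lay away from starts, so the promoters shown are examples of starts open in many cell classes and in few. The 5 windows are printed 5′ to 3′ on the strand of the gene. Gamt, which makes creatine, and Tgif1, a homeobox repressor, stand for starts open in many cells of both old libraries. Isg15, a ubiquitin-like protein induced by interferon, stands for starts open mainly in immune-like and endothelium-like cells. Erg, an ETS-family factor of endothelial identity, and Tek, the angiopoietin receptor TIE2, stand for starts open in endothelium-like cells. Capitals mark matches on either strand to 8 motifs. These were the CCAAT box CCAAT, the TATA box TATAAA, the GC box GGGCGG, the CRE TGACGTCA, the ETS-type CCGGAA and its relative AGGAAG, the AP-1 site TGANTCA and the core of the interferon-stimulated response element. Matches of 1 motif or of several can overlap. The windows are chr10:80260963-80261262 on the minus strand, chr17:70851161-70851460 on the minus strand, chr4:156200769-156201068 on the minus strand, chr16:95459299-95459598 on the minus strand and chr4:94739039-94739338 on the plus strand.
Gamt: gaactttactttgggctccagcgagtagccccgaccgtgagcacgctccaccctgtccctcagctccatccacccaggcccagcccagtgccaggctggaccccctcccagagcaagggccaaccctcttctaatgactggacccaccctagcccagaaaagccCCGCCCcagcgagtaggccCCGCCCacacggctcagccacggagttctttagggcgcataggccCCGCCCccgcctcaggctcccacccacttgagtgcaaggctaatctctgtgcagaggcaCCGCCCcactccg
Tgif1: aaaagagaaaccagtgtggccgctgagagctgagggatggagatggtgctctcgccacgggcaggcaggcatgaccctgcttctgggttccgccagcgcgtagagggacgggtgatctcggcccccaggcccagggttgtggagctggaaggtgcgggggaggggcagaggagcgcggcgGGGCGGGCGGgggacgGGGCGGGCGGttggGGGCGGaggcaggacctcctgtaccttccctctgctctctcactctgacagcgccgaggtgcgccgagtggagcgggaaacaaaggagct
Isg15: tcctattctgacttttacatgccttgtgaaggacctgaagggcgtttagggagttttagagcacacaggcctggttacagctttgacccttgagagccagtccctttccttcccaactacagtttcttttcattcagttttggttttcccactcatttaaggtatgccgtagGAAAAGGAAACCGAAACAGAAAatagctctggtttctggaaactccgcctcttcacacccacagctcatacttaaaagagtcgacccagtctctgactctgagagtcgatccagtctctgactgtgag
Erg: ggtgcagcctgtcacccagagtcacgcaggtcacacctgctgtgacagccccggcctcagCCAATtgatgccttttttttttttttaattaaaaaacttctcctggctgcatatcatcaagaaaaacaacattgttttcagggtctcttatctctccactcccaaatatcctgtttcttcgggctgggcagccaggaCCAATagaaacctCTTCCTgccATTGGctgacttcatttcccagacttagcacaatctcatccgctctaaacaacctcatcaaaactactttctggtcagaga
Tek: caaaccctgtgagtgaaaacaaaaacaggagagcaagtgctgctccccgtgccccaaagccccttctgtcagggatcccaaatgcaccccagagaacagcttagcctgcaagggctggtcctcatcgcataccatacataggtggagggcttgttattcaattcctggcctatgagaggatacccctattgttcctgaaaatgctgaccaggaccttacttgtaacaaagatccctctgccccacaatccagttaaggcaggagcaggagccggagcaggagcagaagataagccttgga

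The windows of Gamt and Tgif1 held 4 and 5 GC boxes, with 14 and 23 CpG dinucleotides in 300 bases. Isg15 had 6 CpG and 3 overlapping matches to the response element core in 1 stretch. Erg had 4 CpG, 3 CCAAT matches counting both strands and 1 AGGAAG match. Tek had 3 CpG and no match to any of the 8 motifs, which says only that these letters are not in this window. A match is not a bound site.

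Over all 211 RefSeq windows that lay whole inside such a region, the median GC content was 53.3% with 6 CpG. The 13416 windows inside regions called in all 3 libraries had a median of 61.3% GC and 21 CpG, and all 32851 windows had 52.7% and 7. A GC box was present in 27.0% of the 211 windows, in 65.0% of those in regions called in all 3 libraries and in 35.7% of all windows. CCGGAA was present in 6.64%, 27.8% and 14.9% in the same order. AGGAAG was in 43.6% of the 211 windows, against 32.4% and 35.4%, and the AP-1 motif was in 11.8%, against 4.82% and 7.81%. TATAAA was in 11.8%, 6.40% and 13.6%, CCAAT in 30.8%, 38.3% and 37.4%, CRE in 0.948%, 3.31% and 1.79%, and the response element core in 4.27%, 2.69% and 3.44%. The promoters in these regions were thus closer in GC and CpG to RefSeq promoters at large than to those open in all 3 libraries. No test was made of these shares.

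The regions had a median width of 983 bp (quartiles 917 and 1109, range 338 to 2824 bp), against a median of 963 bp for regions called in all 3 libraries. The widest were at Chaserr, a noncoding RNA gene, with 2824 bp, near Gm31603 with 2524 bp and at Ebf4 with 2324 bp, and in Daglb and Prkca with 2286 and 2234 bp. In 5909 of them a single old replicate 1 peak met a single old replicate 2 peak. The old peaks overlapped by a median of 752 bp, and 86.4% covered each other by at least 50%. Most regions lay away from gene starts. Of the 5871 regions on chromosomes with start annotation, 433 or 7.38% (Clopper-Pearson 95% interval 6.72 to 8.07%) lay within 1000 bp of a gene start, against 19.9% of regions called in all 3 libraries. The median distance to a start was 19829 bp, against 13314 bp for regions called in all 3. The start table is incomplete, so these shares and distances refer only to the starts it holds. A gene body was overlapped by 64.7% of the regions and by 70.3% of those called in all 3. Chromosome 2 had the most regions, 481, which is 2.50% of its merged regions.

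Absence of a young peak did not mean a distant young peak. The gap to the nearest young peak had a median of 2928 bp, 148 regions lay under 100 bp from one, and 1528 or 25.1% lay under 1000 bp. At the other end, 976 regions or 16.0% were more than 10 kb away and 29 more than 100 kb. At the threshold, the smallest overlap of the old peaks was 1 bp, in Rasgrf1 on chromosome 9, where 37 and 30 barcodes had a count in old replicates 1 and 2. The smallest gap to a young peak was 0 bp, on chromosome 15, where the young peak began beside the region and 7 and 66 barcodes had a count. Just outside, an old replicate 1 peak in Tra2a with 102 barcodes touched no old replicate 2 peak by a gap of 0 bp, and a region called in all 3 libraries in Pef1 overlapped its young peak by only 11 bp, with 182 and 69 barcodes. The pairs of old peaks that missed each other by at most 100 bp numbered 175.

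Most of the regions were weak. The share of barcodes with a count had a median of 0.831% in the first old library (47 barcodes, range 4 to 2770) and 1.05% in the second (45 barcodes, range 3 to 1990). The median level was 1.09 and 1.37 CPM (counts scaled to the total of the library or, where a class is named, of its cells), against 2.07 and 6.47 in regions called in all 3 libraries. The regions together took 1.52% of the counts of old replicate 1 and 1.10% of those of old replicate 2. More than 10% of barcodes had a count in 146 regions of old replicate 1 and 13 of old replicate 2. Levels in the old libraries ranked the regions differently. Spearman's rank correlation between them was 0.149 over the 6093 regions, against 0.466 over the 72317 regions called in all 3, as a description across regions of the same libraries, which share depth and cell makeup.

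**Figure D1:**
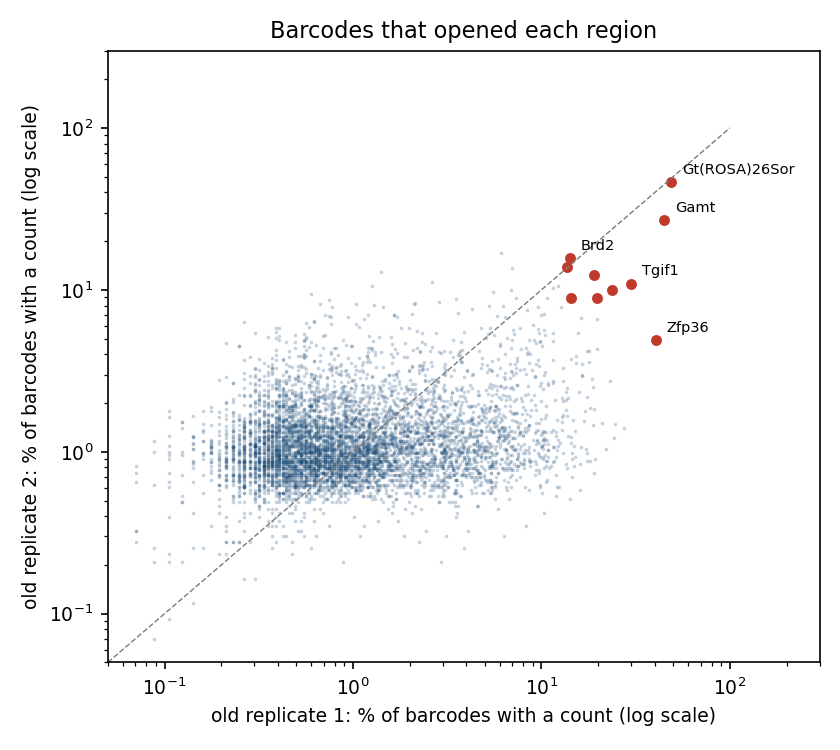
Percent of barcodes with at least 1 count at each of the 6093 regions in old replicate 1 (x axis) and old replicate 2 (y axis), both on log scales. Red points are the 10 regions with the highest levels, and the dashed line marks equal shares. The cloud centres near 0.831% and 1.05%, and the red points stand apart at the upper right.

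The strongest regions were open in every cell class. The highest, at 113075935 to 113077668 on chromosome 6 in Gt(ROSA)26Sor, a broadly transcribed noncoding gene, and in Setd5, a chromatin regulator, had 90.5 and 101 CPM in old replicates 1 and 2. A count was present in 2770 of 5656 and 1990 of 4302 barcodes, and the nearest young peak was 1677 bp away. The region over the starts of Gamt and Dazap1, an RNA-binding protein, had 82.5 and 44.5 CPM with a young peak at 545 bp. Tgif1 had 46.8 and 14.8. The region 1440 bp from Zfp36, whose protein destabilises inflammatory mRNAs, had 75.8 and 6.46 CPM. Brd2, a bromodomain reader of acetylated histones, had 19.4 and 22.9. Every one of these 5 was open in all classes compared: at Gt(ROSA)26Sor, endothelium-like cells had 113 and 211 CPM of the class, proximal tubule-like cells 65.3 and 98.6, and immune-like cells of old replicate 1 93.0. The levels were not equal: in edgeR's quasi-likelihood test against proximal tubule-like cells the log2 fold of endothelium-like cells was 0.91 there (SE 0.14, adjusted p = 2.48e-05) and 2.65 near Zfp36 (SE 0.35, adjusted p = 2.06e-06). Of the 6093 regions, 15 or 0.246% reached 10 CPM in both old libraries, and 10 of the 15 lay at a gene start. The same count for regions of old replicate 1 and young that missed a peak in old replicate 2 was 23 of 10451 or 0.220%, and for regions of old replicate 2 and young that missed one in old replicate 1 it was 1005 of 44981 or 2.23%.

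Counts of each class at the regions were then compared, with class totals as the base. Cell classes were not named in the rule, and clusters were built without these regions. The rule is still not independent of class. Proximal tubule-like cells gave 88.7% of the counts of the cells kept in the young library. A region open in them could be called there and so left out, which bears on each comparison with this class below. How far it does was not tested. Endothelium-like cells had the highest level in both old libraries. A region had a mean of 7.12 CPM in endothelium-like cells of the first old library (95% interval 7.07 to 7.18, counting error only) and 8.45 in those of the second (8.34 to 8.56). Loop to collecting duct-like cells followed with 4.35 (4.28 to 4.42) and 3.46 (3.43 to 3.49). Proximal tubule-like cells had 1.99 (1.96 to 2.01) and 1.59 (1.58 to 1.59). In old replicate 1 macrophage or dendritic-like cells had 2.39, T or NK-like cells 2.18 and neutrophil-like cells 2.27. The ratio of endothelium-like to proximal tubule-like was 3.59 and 5.33 in the first and second old library, and the loop to collecting duct-like ratio was 2.19 and 2.18. At the regions called in all 3 libraries the endothelium-like ratio was 0.825 and 1.08 and the loop ratio 0.942 and 1.01. A high endothelium-like ratio was not limited to the 6093 regions in old replicate 1, where it was 3.94 at the 78112 regions called in that library alone. In old replicate 2 it was 0.733 at the 18179 regions called there alone. The 10451 regions of old replicate 1 and young only had endothelium-like ratios of 2.71 (old replicate 1) and 3.14 (young). Those of old replicate 2 and young only had 0.318 (old replicate 2) and 0.406 (young). Loop ratios were 1.86 and 1.59 at regions called in the first or second old library alone. At the groups shared with young they were 1.62 and 1.67, then 0.769 and 0.838, in the same order. Regions called in young alone had 0.770 (endothelium-like) and 1.27 (loop). The young library had 50 endothelium-like cells, fewer than either old library, and 209 loop to collecting duct-like cells, more than the 55 of old replicate 1. The part of these cell numbers in the missing young peaks was not tested.

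**Figure D2:**
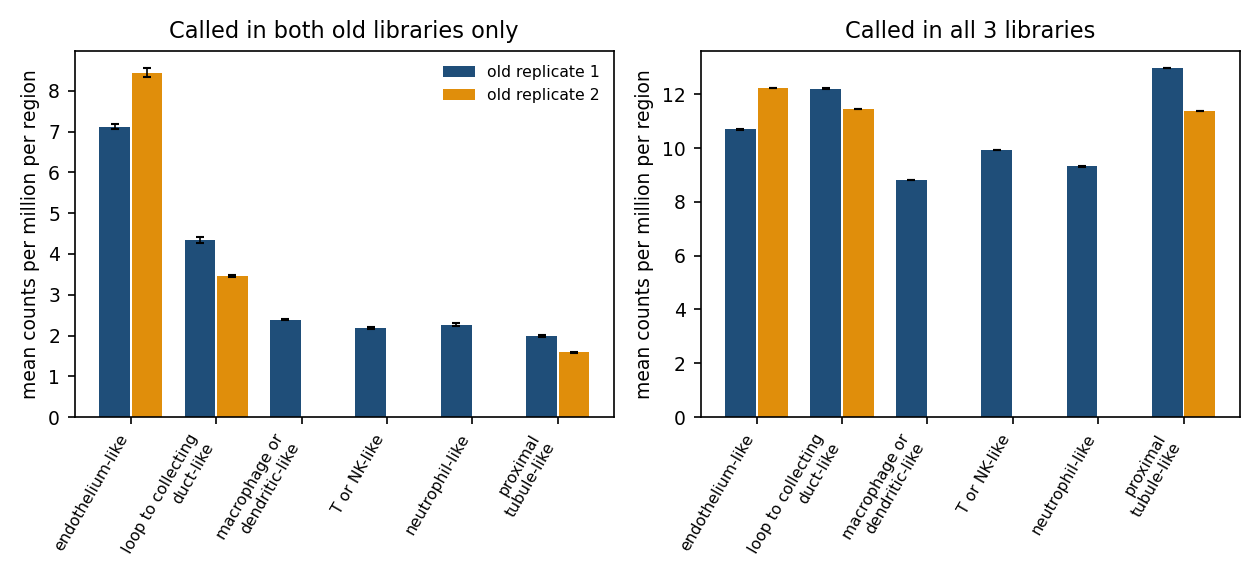
Mean CPM of a class at each region, for regions called in both old libraries only (left) and in all 3 libraries (right), in old replicate 1 (blue) and old replicate 2 (orange). Error bars are 95% intervals of counting error, immune-like classes are shown for old replicate 1, and both axes start at 0. Endothelium-like bars reach 7.12 and 8.45 on the left, and classes lie close together on the right.

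Single cells ranked these 3 classes the same way, with depths that differed and were not evened out. An endothelium-like cell opened a median of 226 of the regions in old replicate 1 and 171 in old replicate 2, out of medians of 5409 and 3355 open regions of any kind. A proximal tubule-like cell opened 99 and 70, although it had more open regions in all, 9720 and 6879. Per 1000 open regions this was 44.0 and 55.0 in endothelium-like cells, 29.1 and 22.4 in loop to collecting duct-like cells and 10.6 and 10.1 in proximal tubule-like cells. Endothelium-like cells were 3.50% and 2.66% of cells and gave 8.47% and 6.86% of the counts at the regions, against 2.96% and 1.47% of all counts. Most counts still came from the main class of each library: immune-like cells gave 83.2% of the counts at the regions in old replicate 1 (83.1 to 83.3%), against 88.3% of all counts, and proximal tubule-like cells 79.8% in old replicate 2 (79.6 to 79.9%), against 91.3%. Loop to collecting duct-like cells gave 11.6% of the counts at the regions in old replicate 2, against 6.11% of all counts.

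Each class was next tested against proximal tubule-like cells of the same 2 old libraries, over all 78410 regions with a peak in both. As above, this comparison is not independent of the rule, so its counts only describe the regions. In edgeR's quasi-likelihood test with library as block, filtered on low counts, 2523 of the 6093 regions entered the endothelium-like test. Of these, 1388 were higher in endothelium-like cells and 144 lower at a Benjamini-Hochberg adjusted p under 0.05, beside 12.0% higher and 25.9% lower of all 62117 regions tested. A region that enters through the class where it is high is likely to be called, so the test was also read with no filter, where all 6093 entered. Then 1380 or 22.6% were higher and 157 or 2.58% lower, beside 9.43% and 20.6% of all 78410 regions. In the loop to collecting duct-like test 2418 regions entered and 791 were higher and 106 lower, beside 7.51% and 17.0% of all 65167 tested. With no filter 763 were higher and 103 lower of all 6093, beside 5.77% and 13.8% of 78410. The median log2 fold over all regions tested was -0.49 in the endothelium-like test and -0.14 in the other, and another scaling (RLE) moved the endothelium-like median by -0.11.

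Without a test, the endothelium-like level was above the proximal tubule-like level in both old libraries in 2287 regions, or 37.5%, beside 25.1% of all 78410, and below it in both in 1973 or 32.4%, beside 50.5%. The loop to collecting duct-like level was above it in both in 2187 regions, or 35.9%, beside 30.4%, and below it in 1604 or 26.3%, beside 38.6%. Counts per region were low: 30.2% of the 6093 regions had no count in endothelium-like cells of old replicate 1 and 42.7% none in old replicate 2. A class was then said to lead a region where it had at least 2 CPM and at least 4 times each other class in both old libraries, immune-like cells of old replicate 1 included. This cutoff was set after the levels had been seen. Endothelium-like cells led 876 regions or 14.4%, loop to collecting duct-like cells 349 or 5.73% and proximal tubule-like cells 63 or 1.03%. Among the regions called in all 3 libraries the same classes led 1.47%, 1.25% and 6.77%. These shares too depend on the rule, which leaves out regions with a young peak. No class led 4521 of the 6093.

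**Figure D3:**
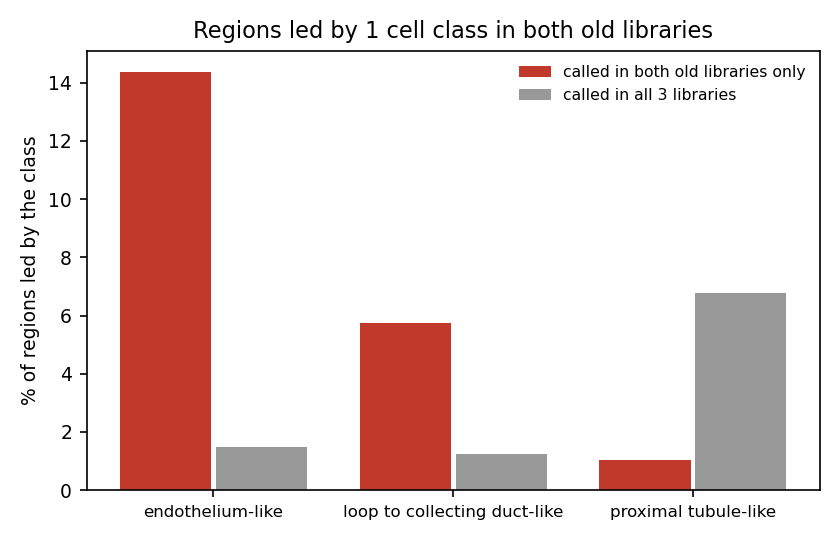
Percent of regions led by a class, by at least 4 times each other class in both old libraries, among regions called in both old libraries only (red, 6093) and in all 3 libraries (grey, 72317). Endothelium-like cells led 14.4% of the first and 1.47% of the second, and proximal tubule-like cells 1.03% and 6.77%.

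The endothelial genes had the most regions of the 17 gene lists used. Together 19 regions had their nearest start at 8 of the 12 endothelial genes with a start in the table, which is 7.98 of every 100 merged regions nearest to these genes, against 2.43 over all genes. Erg, Tek and Kdr, a VEGF receptor, had 4 regions each, Flt1, another VEGF receptor, and Mecom, a zinc finger factor, 2 each, and Eng, a TGF-beta family co-receptor, Ehd3, an endocytic protein of glomerular endothelium, and Egfl7, a secreted factor of endothelium, 1 each. In edgeR's quasi-likelihood test 16 of the 19 entered, and all 16 were higher in endothelium-like than in proximal tubule-like cells at adjusted p under 0.05, beside 1388 of the 2523 old-only regions and 12.0% of all regions that entered. A region enters mainly through the class where it is high, so this count is a description and no support. The 3 that did not enter were 2 at Erg and 1 at Mecom. These lists were chosen with earlier results of the same data known, and the endothelial list shares Erg, Tek, Kdr, Flt1, Egfl7 and Ehd3 with the markers that name the class, though these regions were left out of naming.

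The 4 Tek regions lay at its start and 2269, 6805 and 90312 bp from it. At the Tek start, whose promoter is printed above, 6 endothelium-like cells of old replicate 1 (3.23%) and 13 of old replicate 2 (12.4%) had a count. This region was weak, with 19 and 33 barcodes in all. Immune-like cells gave 59.1% of its counts in old replicate 1, at 0.338 CPM of the class. In old replicate 2, 15 proximal tubule-like cells had a count. The endothelium-like levels there were 5.42 and 35.1 CPM, against 0 and 0.566 in proximal tubule-like cells. The log2 fold in edgeR's quasi-likelihood test was 5.92 (SE 1.07, adjusted p = 1.35e-04). The region 6805 bp away was open in 54 of 186 and 27 of 105 endothelium-like cells, or 29.0% and 25.7%, with 58.1 and 95.1 CPM. Its proximal tubule-like levels were 0 and 0.585. The young peak nearest to the Tek start was 12289 bp off.

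At the Erg start, 43 and 18 endothelium-like cells had a count, 23.1% and 17.1%, with 41.5 and 52.1 CPM against 0 and 0.438 in proximal tubule-like cells (edgeR log2 fold 7.01, SE 0.60, adjusted p = 2.30e-09). The Erg region 19619 bp away had 43.4 and 78.1 in endothelium-like cells. The Erg region 28722 bp away had no count in endothelium-like cells of either library, and 1.59 and 0.968 CPM in proximal tubule-like cells. This last region did not enter the test. Its counts, 8 and 53 in proximal tubule-like cells, were too few to read a difference between classes.

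Egfl7 and Eng had the highest levels of the list in old replicate 1. The Egfl7 region, 2081 bp from its start, had 88.0 and 66.8 CPM in endothelium-like cells against 0 and 0.201 in proximal tubule-like cells, and was open in 74 of 186 and 20 of 105 endothelium-like cells. The Eng region inside the gene had 92.6 and 65.7, against 0 and 0.420. Among the 4 Kdr regions, levels in endothelium-like cells ran from 22.5 to 54.2 in old replicate 1 and from 22.6 to 70.2 in old replicate 2. The Flt1 region 543 bp from its start was the lowest called, with 14.3 and 5.66 CPM against 1.59 and 1.66 (edgeR log2 fold 2.47, SE 0.95, adjusted p = 4.29e-02). The Mecom regions differed: the first had 13.2 and 22.6 CPM in endothelium-like cells. The second had 0.775 and 2.26 there and was higher in loop to collecting duct-like than in proximal tubule-like cells (edgeR log2 fold 5.21, SE 0.60, adjusted p = 6.18e-16).

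**Figure D4:**
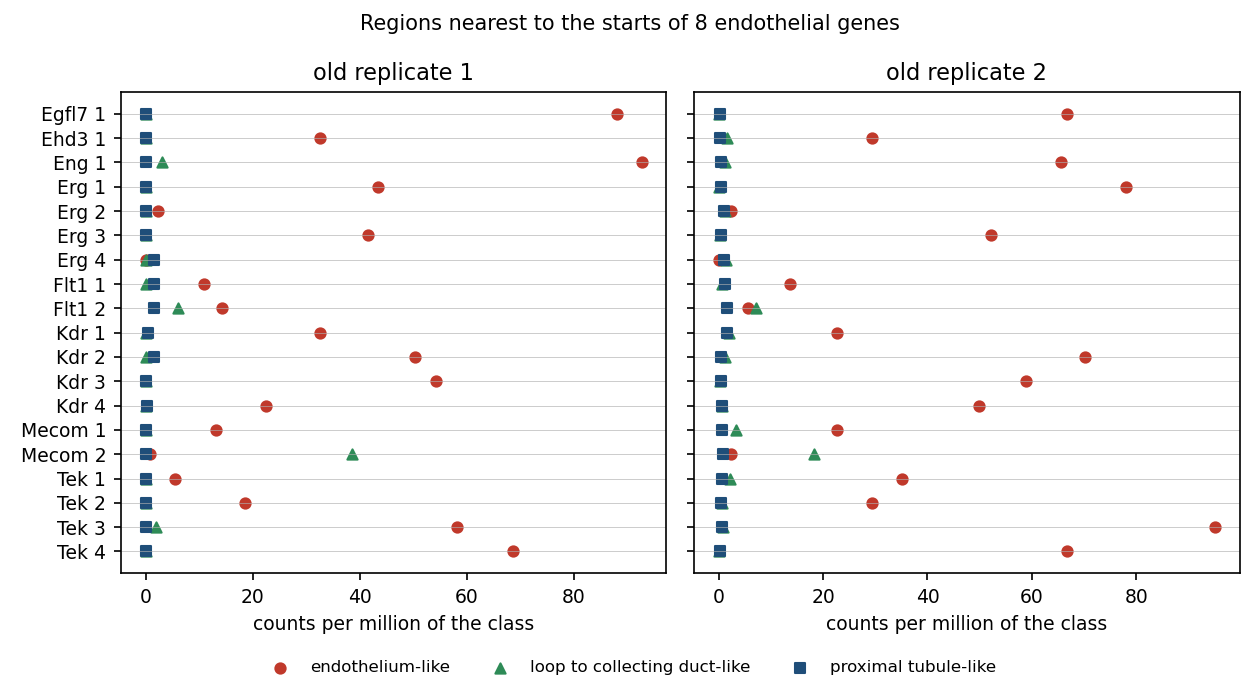
Level in CPM of a class at the 19 regions nearest to the starts of 8 endothelial genes, numbered along the chromosome within a gene, in old replicate 1 (left) and old replicate 2 (right). Circles are endothelium-like, triangles loop to collecting duct-like and squares proximal tubule-like cells. Endothelium-like cells lie above the others at most regions, up to 92.6 and 95.1, except at the second Mecom and the fourth Erg region and, in old replicate 2, the second Flt1 region.

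Few of the largest endothelium-like folds were at genes of the list. The 6 largest, called and of the same direction in both libraries, had log2 folds of 8.19 to 8.46 and lay near Gm35908, 5033426O07Rik, Egfl7 and Gm39082, in Anapc7, a subunit of the anaphase-promoting complex, and in Ankrd29. The region in Anapc7 had 89 and 43 counts in endothelium-like cells against 0 and 8 in proximal tubule-like cells. The most open region led by endothelium-like cells, on chromosome 12 and 4313 bp from Gm51967, had 149 and 169 CPM of the class, against 0 and 1.19 in proximal tubule-like cells. A region in Caskin2, which codes for a scaffold protein, had 145 and 129, against 0 and 0.786. In Sptbn1, a spectrin of the membrane skeleton, it was 91.8 and 119, against 2.19 and 1.35.

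Other regions were higher in loop to collecting duct-like cells. Casr, the calcium-sensing receptor of the thick ascending limb, had 34.5 and 38.2 CPM in these cells in old replicates 1 and 2, against 0 and 0.530 in proximal tubule-like cells (edgeR log2 fold 6.35, SE 0.53, adjusted p = 1.01e-29). The young peak nearest to it was 9045 bp away. In St14, the membrane protease matriptase, the region had 46.7 and 24.8 against 0 and 0.219, which was the largest fold (log2 7.05, SE 0.59). The other 4 of the 6 largest were in Klk15, a kallikrein protease, Fcgbp, a mucin-like Fc-binding protein, near Slc25a13, a mitochondrial aspartate-glutamate carrier, and in Tmprss2, a serine protease. Epb41l4b, a cytoskeletal linker, had the highest level of the regions these cells led, 68.0 and 51.3 against 2.99 and 1.88. A region over Esrp1, an epithelial splicing factor, had 50.8 and 51.6 but also 12.4 and 8.35 in proximal tubule-like cells. Endothelium-like cells had no count at Casr, St14, Klk15, Fcgbp or Esrp1 in either library. The loop to collecting duct-like sums rest on 55 cells in old replicate 1.

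Regions led by proximal tubule-like cells were few. This class had 3351 cells in the second old library and 2861 in the young one. A region open in it could be called in the young library and so left out by the rule, so the low number is not read as a trait of the regions. The region over the start of Ctsm, a lysosomal cathepsin, had 14.3 and 15.0 CPM in proximal tubule-like cells of old replicates 1 and 2, where 28 and 369 cells had a count. Endothelium-like cells had no count there, and loop to collecting duct-like cells had 0 and 1.64 CPM. The nearest young peak was 168177 bp away. Ctsm belongs to a family of close cathepsin copies, so its reads may be shared between copies. The region in BC040756 had 20.9 and 9.24, with 42 and 246 cells, and no count in either other class, which makes it at least 11.8-fold higher in proximal tubule-like than in endothelium-like cells and at least 15.8-fold higher than in loop to collecting duct-like cells, with 3 counts over both libraries taken as the floor. A young peak lay 725 bp from it.

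Slc22a8, the basolateral organic anion transporter of the proximal tubule, had a region 1123 bp from its start with 9.56 and 10.5 CPM in proximal tubule-like cells. There 23 of 216 and 271 of 3351 such cells had a count, and the young peak nearest to it was 748 bp away. The region in Dlgap4 had 19.1 and 12.9 with 36 and 318 cells, and that in Pepd, a dipeptidase, 11.2 and 9.83. In Lipa, the lysosomal acid lipase, 33 and 445 counts in proximal tubule-like cells stood against 0 in loop to collecting duct-like cells, at least 12.4-fold. The other regions of this kind with the largest folds were near Gm3693 and Gm40047, over Gm16254 and Lrp11 and in Tnni3k, at least 10.7 to 14.5-fold. Beside BC040756 and Ctsm, the regions with the largest folds over endothelium-like cells were near Gm35097, Gm35894, Gm36089 and Gk5, at least 5.35 to 14.7-fold. The level at Lipa in immune-like cells of old replicate 1 was 2.25 CPM.

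Immune-like cells gave most counts at many of the regions in old replicate 1. The immune-like share of a region's counts there had a median of 79.4% (quartiles 37.0 and 92.8%), close to the 77.1% of regions called in all 3 libraries. In 1951 regions or 32.0% it was over 90%, against 17.0% of regions called in all 3 libraries. In 1852 or 30.4% it was under 50%, against 30.6%. Old replicate 2, where 9 immune-like cells were kept, had a peak at the same regions. At the start of Cd8a, the T cell co-receptor, 99.5% of old replicate 1 counts came from immune-like cells, with 192 barcodes. In old replicate 2 there were 41 barcodes with a count, of which 38 were proximal tubule-like, the class of 84.8% of cells there. The old peaks at Cd8a overlapped by only 108 bp of a region of 1751 bp. Lef1, a factor of naive T cells, had 98.7% and 257 barcodes against 44 in old replicate 2.

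In all, 13 regions lay within 1000 bp of the start of a listed gene. Isg15, whose promoter is printed above, had the highest level, 17.3 and 2.22 CPM of the libraries, with 728 and 71 barcodes. It had 25.6 and 31.7 in endothelium-like cells, 2.99 and 1.46 in proximal tubule-like cells and 18.1 in immune-like cells of old replicate 1, and it was higher in endothelium-like than in proximal tubule-like cells by edgeR (log2 fold 3.76, SE 0.64, adjusted p = 6.51e-05). Sparc, a matrix protein, was likewise higher in endothelium-like cells, at 32.2 and 26.04 against 3.98 and 1.72 (edgeR log2 fold 3.44, SE 0.59, adjusted p = 7.61e-05), with 0.143 in immune-like cells. Gbp2, an interferon-induced GTPase, had 8.14 and 15.9 against 3.39 and 2.36 (edgeR adjusted p = 6.37e-02). Icam1, a leukocyte adhesion molecule, had 4.65 and 0 against 6.17 and 3.64 (edgeR adjusted p = 4.94e-01). Psat1, an enzyme of serine synthesis, had 1.55 and 2.26 against 6.37 and 5.15 (edgeR adjusted p = 2.38e-01). Cp, ceruloplasmin, had 9.30 and 2.26 against 6.17 and 2.54 (edgeR adjusted p = 8.12e-01).

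The other lists held from 3 to 9 regions each. The macrophage or dendritic cell list had 8, or 4.52 of every 100 merged regions nearest to its genes, and interferon and antigen presentation 5 or 3.76, inflammation and NF-kB 9 or 3.28, and imprinted genes 5 or 3.70. Proximal tubule transport had 6 or 1.53, the circadian clock 3 or 1.59, and lymphocyte genes 5 or 1.65, below the 2.43 over all genes. Per 100 regions called in both old libraries, lymphocyte genes had 8.77, above the 7.73 over all genes, so their order turned with the denominator, while proximal tubule transport had 3.77 and the circadian clock 3.45. Mitochondrial translation and respiration had 4 regions, 2 of them at Lars2, a mitochondrial leucyl-tRNA synthetase, and 1 at Ears2, the synthetase that charges the mitochondrial glutamate tRNA. The integrated stress response had 6, with 2 at Mthfd2, a mitochondrial folate enzyme. The tubule injury list had 8 regions, 2 of them at Cp and 1 at Havcr1, the kidney injury molecule.

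A gene held the regions one at a time in most cases. Of 3284 genes with a region inside, 651 had at least 2 and 26 at least 5. Foxp1, a forkhead repressor, had the most, 9 of its 146 merged regions, followed by Cradd, a death-domain adaptor, and Septin9, a septin of the cytoskeleton, with 7 each. Atxn1, Dock4, Lrmda, Mcc, Mkln1, Pde4d, Tmcc3 and Zfhx3 had 6 each and Akap13 had 5. Among these 12 genes Mkln1 had the largest share, 6 of 18 merged regions. Windows of 500 kb, chosen after the counts had been seen, had up to 15 regions of 133 merged, on chromosome 6 from 31000001 to 31500000, which holds most of Mkln1. A window on chromosome 3 from 52500001 to 53000000 had 13 of 126.

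The largest gap to a young peak, 507966 bp on chromosome 14 near Gm8032, belonged to a region with 10 and 81 barcodes in old replicates 1 and 2, with 2.55 CPM in old replicate 2. Of its barcodes 9 and 70 were proximal tubule-like. The next, 486606 bp on chromosome 17, had 33 and 57 barcodes.

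Regions called in all 3 libraries that lay within 5000 bp of one of the 6093 were compared between ages in proximal tubule-like cells, most of which fell into different clusters in the young and the old libraries. This is the contrast that chose the regions, so it is printed and nothing is read from it. Of 3952 such neighbours, 25 were higher in old and 0 lower at adjusted p under 0.05 in edgeR's quasi-likelihood test of 2 old against 1 young library, beside 0.458% higher and 0.029% lower of all 72316 tested. At an unadjusted p under 0.05, 262 of the neighbours passed in either direction, beside 3724 of all 72316. DESeq2 was not run on it.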

How the data were processed

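Open chromatin was measured in 3 kidney libraries, grouped by the age and mutation load in the sample titles. Cell Ranger ATAC 2.1.0 and the build mm10 are named in the submitters' processing notes. Each deposited matrix holds raw counts of transposition events, not normalized, and the authors' peaks differ between libraries, so they were called per library. The young table has no rows at the regions described, so no young count exists there. Peak calling settings are not given in the sources used here.

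Peaks were merged at 1 bp of overlap. Barcodes with at least 1000 counts were kept, and simulated doublets were used to score barcodes, of which the top 248, 133 and 135 were removed (0.8% per 1000 barcodes). Clusters came from 30 latent semantic components of regions called in all 3 libraries and Leiden clustering at resolution 1 (leidenalg 0.10.2). Names rest on fixed markers with counts within genes; regions described here were left out. The scoring rule for names was set after clusters had been seen. Counts summed per library and class were tested with edgeR 4.0.16 (TMM, filterByExpr, quasi-likelihood, library as block); DESeq2 1.42.0 was an alternative. The script was tested on simulated data: of 200 regions changed 4-fold, 56.5% were recovered in the endothelium-like comparison and 61% in the loop to collecting duct-like comparison. The changed regions were drawn only from those above a minimum count, with a fixed spread, so recovery at weaker regions was not measured. Simulated counts were drawn singly, whereas most deposited counts are even, so recovery in the real data may differ. Both classes of a comparison come from the same library, which is where the block comes from.

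Most deposited counts are even, from 89.5% to 94.3% of values, since both ends of a fragment are counted, so intervals use fragments (count over 2, rounded up) and cover counting error only. Gene starts and promoters came from RefSeq tables of GRCm38.p6, which hold no start on chromosome 18, so shares at a start cover 5871 regions. Starts of other genes are missing too: only 12 of the 23 endothelial list genes and 17 of the 24 lymphocyte list genes had one. Distances, shares at a start and nearest genes therefore refer to the starts held, and a nearer start can be missing. Regions were named by fixed rules: the 10 highest and 5 widest, the 6 largest folds each way per test, the 12 highest at listed starts, those nearest the thresholds, and the 12 genes with the most regions. Regions named as led by a class, the densest windows and the farthest regions were chosen after their values were seen. The regions and lists were chosen with earlier results of these data known. Motifs over whole regions were not searched, since a genome was not used here.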

Additional observations from a re-analysis of the deposited data

How the results depend on the processing

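The number of regions was 5628 when peaks were joined across 500 bp, 5281 with reciprocal overlap of 50% and 4565 with no young peak within 1000 bp, and it fell to 487 with a minimum of 2% open barcodes per peak, a limit that most of these regions fall under. The share at a gene start was 13.5% with a 3000 bp window and 4.75% with protein-coding genes only. The immune-like share in old replicate 1 was 84.3% without doublet removal, 85.1% at 3000 counts per barcode, 84.7% at Leiden resolution 2.0 and 84.0% by open regions per cell. The proximal tubule-like share in old replicate 2 was 82.3%, 81.8% and 81.1% under the first, second and last of these. With regions more than 1000 bp from a young peak, chosen after seeing the data, the shares were 81.3% and 77.9%. Counts of regions called higher stayed within 1.5 times: 1366 to 1589 for endothelium-like cells and 763 to 948 for loop to collecting duct-like cells under RLE, no filter, DESeq2 and no replicate block. Without the library as replicate block they were 1589 and 814. Leaving out 1 old library gave ratios of 3.59 to 5.33 for endothelium-like and 2.18 to 2.19 for loop to collecting duct-like cells, with no test. The loop ratio was 2.14 without doublet removal, 2.34 away from young peaks, 2.27 away from gene starts and 1.90 for regions open in at least 1% of barcodes of both libraries, all chosen after seeing the data; the cause was not tested. Under the same 4 settings the endothelium ratio, 4.37 as reported, was 4.22, 5.11, 4.55 and 3.48. No paired analysis was possible because the young sample has no second replicate, for the age contrast. Motifs in whole regions were not run. Low counts per region limit single calls: most regions did not pass the count filter.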
